A study of Mus musculus with 8 samples.

Results

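The loss of Taf8, a subunit of the general transcription factor TFIID, was examined here across 10 genes of the Sonic hedgehog pathway in the embryonic mouse cerebral cortex. The genes were chosen by name: Ptch1, Smo, Sufu, Hhip, Gas1, Cdon, Boc, Gli1, Gli2 and Gli3. All 10 were found by their NCBI gene identifiers among the 27179 genes of the deposited count matrix, and all 10 passed the filter on low counts. The groups were 4 embryos labelled Taf8 deleted, of genotype Taf8 -/lox, and 4 labelled Taf8 intact, of genotype Taf8 +/+. Each library of unstranded, polyadenylated RNA came from the cortex of a separate embryo. No source used here states the recombinase, the cells in which it acts, the embryonic stage or whether the intact embryos carried the recombinase.

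Sonic hedgehog is a secreted ligand that binds the receptor Ptch1 and thereby lifts its block on Smo, a membrane protein that signals from the primary cilium. Signalling ends on the Gli transcription factors. Gli2 acts mainly as an activator, Gli3 mainly in a shortened repressor form, and Gli1 is an activator whose gene is itself switched on by the pathway, as are Ptch1 and Hhip. In the developing forebrain the ligand patterns ventral territories, and Gli3 is required for the cortex to form dorsally.

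Taf8 had 30, 14, 29 and 14 counts in the deleted libraries and 1491, 1383, 1222 and 1403 in the intact libraries, so each library had the Taf8 level of its label. Libraries held 39590959 to 44788200 counts, of which the 10 genes together took 33912 to 43063. Levels are given as CPM, gene counts scaled to library size with TMM factors. A change was called where the Benjamini-Hochberg adjusted p of the edgeR quasi-likelihood fit over the 16074 genes tested was under 0.05. Most intact embryos share the leading part of their animal number and each deleted embryo has its own, so that whatever these numbers mark cannot be told apart from the genotype. A list of 9 neuronal markers summed to 5424 to 5888 CPM in deleted and 7328 to 8029 CPM in intact libraries, with 8 members lower and none higher. A list of 9 radial glial markers summed to 3122 to 3347 CPM in deleted and 2182 to 2499 CPM in intact libraries, with 6 members higher and 2 lower. The sum is weighted to its most abundant members, Nes and Vim, named after their values were seen. Their means were 1228 and 909.5 CPM in deleted and 682.1 and 602.3 CPM in intact libraries. The 2 lower members were Fabp7 and Slc1a3. Endothelial markers were higher for 7 of 7. Without deleted replicate 2, deleted replicate 3 or intact replicate 1 this count was 6, and without deleted replicates 2 and 3 together 5. Beside these marker counts, 30.6% of all genes tested were called higher and 32.9% lower. Of 7 microglial markers 2 were higher and 1 lower, with 3 lower without intact replicate 3. Of 5 oligodendrocyte precursor markers 4 were lower and 1 higher, a higher call kept only without deleted replicate 2 or 4 among the single libraries left out. Fewer cells of a type and less RNA per cell cannot be told apart in bulk RNA, and the part of these shifts in the results below was not tested.

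The hedgehog pathway genes changed little and in both directions. Gli3 and Gas1 rose by 27.3% and 26.2% of their intact level, Ptch1 rose by 9.17%, Gli1 fell by 28.4% and Cdon fell by 14.9%. Of the 10 genes, 3 rose, 2 fell and 5 were not called, or 50% called. Over all genes tested, 63.5% were called, 30.6% higher and 32.9% lower, so that the share of the pathway genes was not above the background. The median log2 fold change of the 10 genes was -0.03, against 0 for all genes tested, and their median absolute log2 fold change was 0.18, against 0.27. The CPM of the deleted and intact libraries did not overlap for 3 of the 10, Gli3, Gas1 and Gli1, 2 of them higher and 1 lower, whereas 57.7% of all genes tested did not overlap, 27.6% higher and 30.1% lower in deleted libraries. No pathway gene was called against a 1.5-fold change by edgeR's test, and none had an unadjusted p under 0.05 in that test. Of all genes tested, 10.9% were called in that test, so few calls among 10 genes would be the background.

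**Figure D1:**
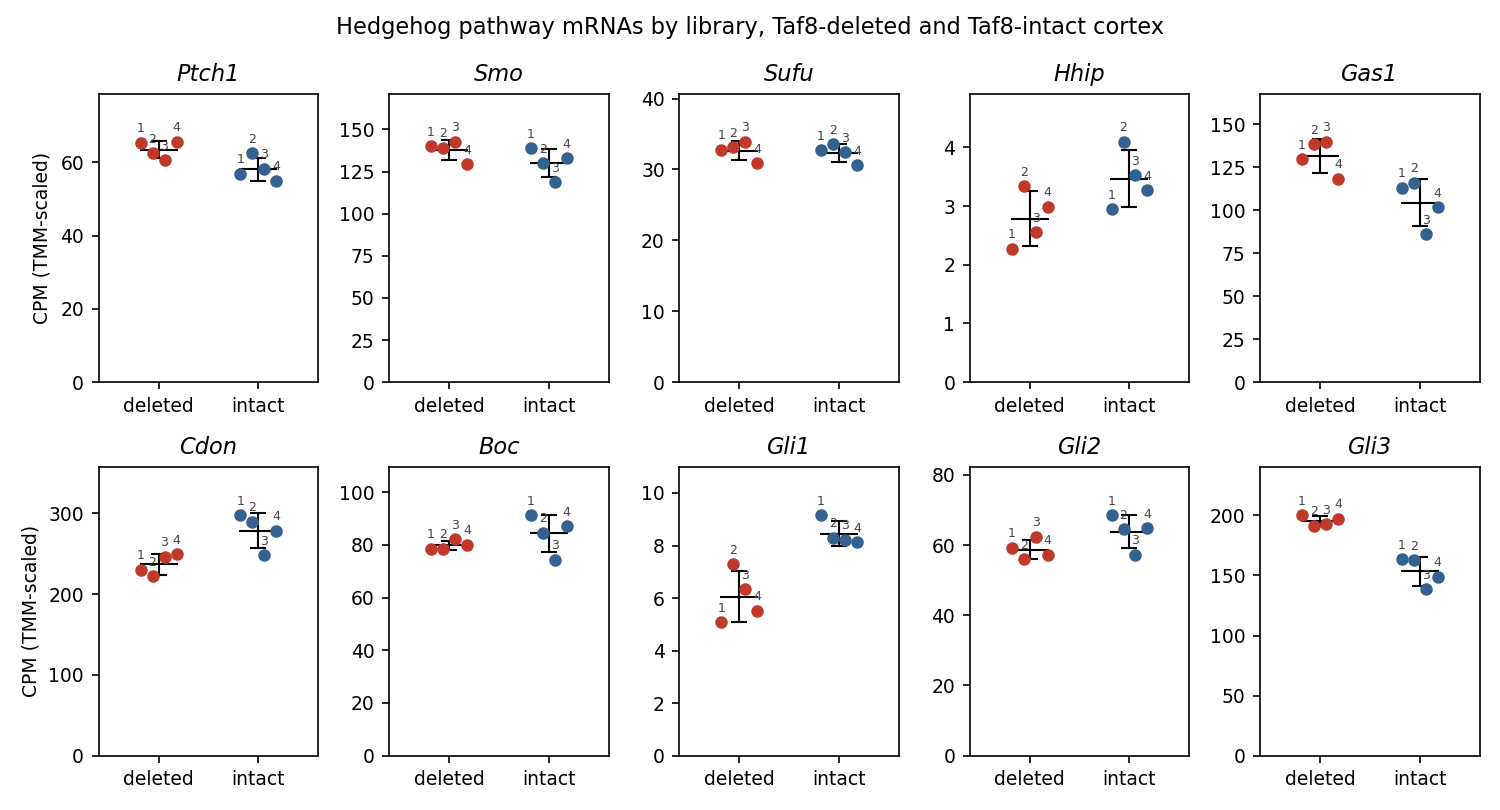
TMM-scaled CPM of each hedgehog pathway mRNA in the 4 Taf8-deleted (red) and 4 Taf8-intact (blue) libraries, numbered by replicate, with the mean and SD in black. The groups are apart for Gli1, Gli3 and Gas1, with Gli1 at 5.08 to 7.28 CPM in deleted and 8.13 to 9.16 CPM in intact libraries.

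Among the Gli transcription factor genes, Gli1 and Gli3 changed in opposite directions. Gli1 (gene ID 14632, chromosome 10, 127329882 to 127341579, minus strand, GRCm38) had 5.08, 7.28, 6.33 and 5.51 CPM in deleted libraries 1 to 4 and 9.16, 8.30, 8.22 and 8.13 CPM in intact libraries 1 to 4. These values rest on 232, 321, 280 and 221 counts in the deleted and on 394, 352, 338 and 343 counts in the intact libraries. All deleted libraries were below all intact ones, and the deleted libraries spread more, with a coefficient of variation of 16.0% in deleted against 5.62% in intact libraries. Gli1 fell by 0.48 ± 0.11 (SE) on the log2 scale, to 0.716 of the intact level (adjusted p = 0.00177, edgeR quasi-likelihood, Benjamini-Hochberg). The 95% interval of this ratio ran from 0.609 to 0.841. Gli1 was called in all 18 alternative fits that tested for any change, with log2 fold changes between -0.68 and -0.39. Of its 4995 exon bases in GENCODE, 62 are shared with Arhgap9 and 265 with a non-coding gene on the opposite strand, and reads there cannot be assigned to a strand.

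Gli3 (gene ID 14634, chromosome 13, 15463723 to 15730026, plus strand) had 200, 192, 192 and 197 CPM in the deleted libraries and 164, 163, 138 and 149 CPM in the intact libraries. The 4 deleted values lay close together, with a coefficient of variation of 2.13%, and all were above the highest intact value. Gli3 rose by 0.35 ± 0.05 (SE) on the log2 scale, or 1.27-fold with a 95% interval of 1.18 to 1.37 (adjusted p = 6.77e-05, edgeR quasi-likelihood, Benjamini-Hochberg). Intact replicate 3 was the lowest, and without it the log2 fold change was 0.31, with adjusted p = 2.61e-05 in the same test. Gli3 was called in all 18 alternative fits for any change. It shares 188 of 9589 exon bases with a non-coding gene on the opposite strand.

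Gli2, the gene of the main activator (gene ID 14633, chromosome 1, 118834061 to 119054405, minus strand), was not called. It had 56.0 to 62.4 CPM in the deleted and 57.2 to 68.5 CPM in the intact libraries, and the ranges overlapped. Its log2 fold change was -0.12 ± 0.05 (SE), adjusted p = 0.0717 by edgeR quasi-likelihood, and its ratio had an unadjusted 95% interval of 0.849 to 0.999. Intact replicate 3 had the lowest intact Gli2 level, and without that library Gli2 was called lower, at -0.16 with adjusted p = 0.00568 in the same test.

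Ratios between the Gli mRNAs within a library do not depend on how the libraries are scaled. Per kilobase of gene length, Gli3 was 17.1, 11.4, 13.2 and 15.6 times Gli1 in the deleted libraries and 7.76, 8.52, 7.31 and 7.97 times Gli1 in the intact libraries. The means were 14.3 ± 2.52 in deleted and 7.89 ± 0.504 in intact cortex (SD, n = 4 each), without overlap. This separation follows from the levels above, with Gli3 higher and Gli1 lower in every deleted than in every intact library. Gli3 was 2.69, 2.72, 2.45 and 2.74 times Gli2 in the deleted libraries and 1.90, 2.01, 1.92 and 1.83 times Gli2 in the intact libraries, again without overlap. These ratios describe mRNA, and the balance of full-length and shortened Gli3 protein was not measured.

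**Figure D2:**
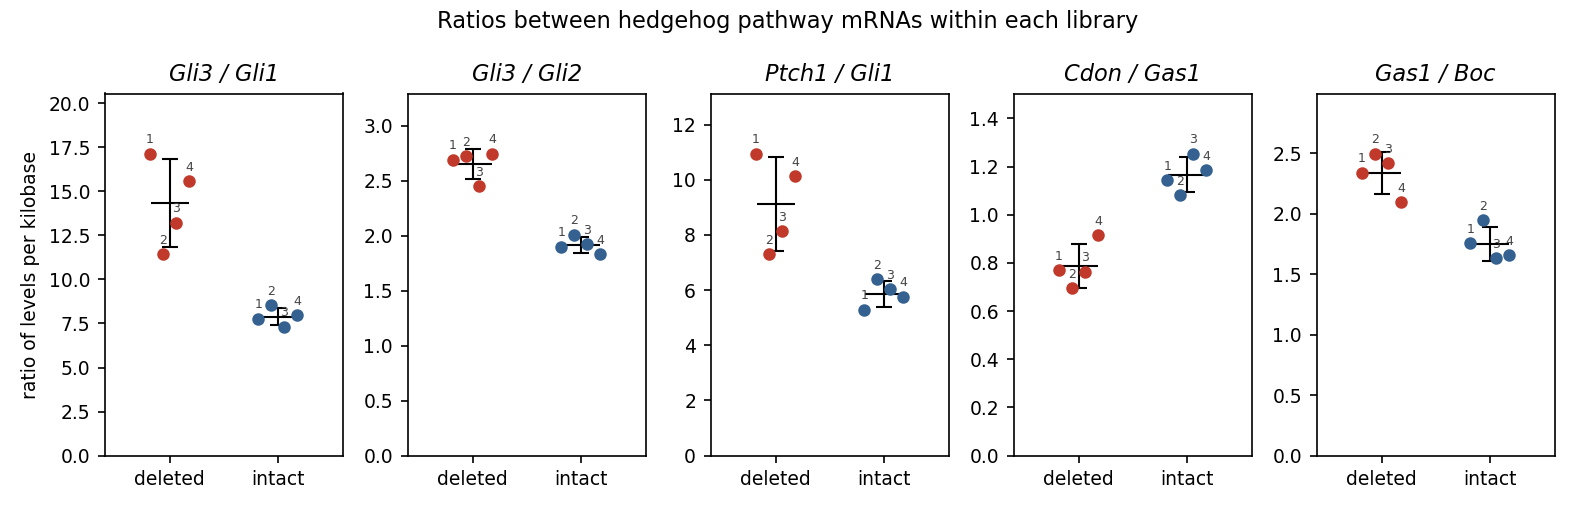
Ratios of levels per kilobase between hedgehog pathway mRNAs within each library, Taf8-deleted (red) left and Taf8-intact (blue) right, numbered by replicate, with mean and SD in black. Gli3 over Gli1 is at 11.4 to 17.1 in deleted and 7.31 to 8.52 in intact libraries, and Cdon over Gas1 is below 1 in every deleted and above 1 in every intact library.

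Ptch1 and Hhip, which like Gli1 are both pathway components and pathway targets, differed from Gli1 in their calls, Ptch1 being called higher and Hhip not called. Ptch1, the gene of the receptor (gene ID 19206, chromosome 13, 63508328 to 63573460, minus strand), had 65.4, 62.4, 60.5 and 65.7 CPM in the deleted libraries and 57.0, 62.4, 58.2 and 55.0 CPM in the intact libraries. The ranges overlapped, since deleted replicate 3 lay below intact replicate 2. Ptch1 rose by 0.13 ± 0.04 (SE) on the log2 scale, or 1.09-fold with a 95% interval of 1.02 to 1.17 (adjusted p = 0.0244, edgeR quasi-likelihood, Benjamini-Hochberg). The call was lost without deleted replicate 1 (0.13, adjusted p = 0.0517), without intact replicate 1 (0.11, adjusted p = 0.0667) and without intact replicate 4 (0.11, adjusted p = 0.0592) in the same test, while the log2 fold change stayed close to that of all libraries. Without deleted replicate 1 and intact replicate 4 together it was 0.10 ± 0.05 (SE) and not called (adjusted p = 0.12), with fewer libraries in the fit. Deleted replicate 1 and intact replicate 4 are the libraries with the most choroid plexus markers in their groups, which summed to 911, 54.1, 146 and 2.29 CPM in the deleted and 5.95, 4.43, 13.3 and 290 CPM in the intact libraries. In the deleted group Ptch1 was highest in replicate 4, with the least of these markers, closely followed by replicate 1. In the intact group Ptch1 was highest in replicate 2, with the least, and lowest in replicate 4, with the most. The part of choroid plexus RNA in the Ptch1 change was not tested. With all 8 libraries, none of the 6 choroid plexus markers was called by edgeR or DESeq2, and none had an unadjusted p under 0.05. None was at 0 in every library. Without deleted replicate 1 and intact replicate 4 together, 0 were called and 1 was higher at an unadjusted p under 0.05 by edgeR quasi-likelihood.

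Hhip, which encodes a membrane protein that binds and sequesters hedgehog ligands (gene ID 15245, chromosome 8, 79965850 to 80058060, minus strand), was the least abundant of the 10 mRNAs. It had 2.28, 3.33, 2.55 and 2.99 CPM in the deleted libraries and 2.95, 4.10, 3.53 and 3.27 CPM in the intact libraries, from 104 to 174 counts each. The ranges overlapped, and the log2 fold change of -0.31 ± 0.15 (SE) was not called (adjusted p = 0.0803 by edgeR quasi-likelihood). With 104 to 174 counts a library, the unadjusted 95% interval of the ratio reached from 0.645 to 1.00, which holds the ratio of Gli1, 0.716. It shares 175 of 9076 exon bases with a non-coding gene on the opposite strand. Hhip was called lower in 3 of 18 alternative fits for any change. The ratio of Ptch1 to Gli1 per kilobase was 9.13 ± 1.70 in deleted and 5.87 ± 0.468 in intact cortex without overlap, while that of Hhip to Gli1 was 0.187 ± 0.0235 in deleted and 0.166 ± 0.0287 in intact cortex with overlap (SD, n = 4 each).

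The promoter windows of the 3 genes that rose, Gli3, Gas1 and Ptch1, are shown because TFIID acts at core promoters and because Gli proteins bind near the Ptch1 start. RefSeq promoter windows (GRCm38.p6) matched 8 of the 10 genes, those of Gli1 and Boc being unmatched. Each line gives the 250 bases before the annotated start, 5′ to 3′ on the gene's strand, with capitals marking the GC box GGGCGG and the CCAAT box CCAAT on either strand. The windows are chr13:15463473-15463722 (plus strand) for Gli3, chr13:60177536-60177785 (minus strand) for Gas1 and chr13:63565736-63565985 (minus strand) for Ptch1.
Gli3: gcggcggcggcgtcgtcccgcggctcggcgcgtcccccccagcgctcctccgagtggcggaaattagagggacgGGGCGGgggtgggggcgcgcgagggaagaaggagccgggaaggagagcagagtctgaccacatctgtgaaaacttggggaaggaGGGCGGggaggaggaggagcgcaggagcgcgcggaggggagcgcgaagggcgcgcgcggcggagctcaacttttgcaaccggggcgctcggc
Gas1: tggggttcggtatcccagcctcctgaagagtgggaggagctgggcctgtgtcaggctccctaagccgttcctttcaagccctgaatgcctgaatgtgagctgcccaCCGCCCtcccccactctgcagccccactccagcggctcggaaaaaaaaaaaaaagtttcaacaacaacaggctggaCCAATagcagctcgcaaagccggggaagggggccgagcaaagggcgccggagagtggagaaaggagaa
Ptch1: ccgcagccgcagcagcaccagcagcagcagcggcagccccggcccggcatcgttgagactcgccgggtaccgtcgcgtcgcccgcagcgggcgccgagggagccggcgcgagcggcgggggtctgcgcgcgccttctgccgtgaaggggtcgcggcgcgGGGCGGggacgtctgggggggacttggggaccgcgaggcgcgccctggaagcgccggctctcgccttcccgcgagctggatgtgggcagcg

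The Gli3 window held 2 GC boxes, the Ptch1 window 1, and the Gas1 window 1 GC box and 1 CCAAT box. Among genes that did not rise, the windows of Gli2, Hhip and Sufu held 1, 2 and 1 GC boxes. The Sufu window also held 1 CCAAT box, and the Smo and Cdon windows held 0 of either. The Ptch1 start lies 7725 bases inside the annotated gene, at an internal start. Of the windows not shown, that of Cdon starts 30548 bases inside its gene and holds 31 exon bases, and those of Gli2 and Hhip start 786 and 52 bases inside, so that counts over the 8 windows include internal starts. Of the 32851 RefSeq windows of this length, 32.7% held the GC box and 33.8% the CCAAT box on either strand. The motifs shared no letters in the 3 windows shown. The TATA motif TATAAA was in none of the 8 windows, against 12.4% of all windows. The Gli motif GACCACCCA, searched on both strands, was in none of the 8, against 0.225% of all windows. The windows of Gli3 and Ptch1 held 34 and 41 CpG dinucleotides and that of Gas1 10, against a median of 6 over all windows. Those of Gli2, Hhip, Smo, Sufu and Cdon, which did not rise, held 22, 28, 15, 8 and 1. A match describes letters only, and its absence here says only that these letters are not in this window. GENCODE annotates non-coding exons on the opposite strand across the whole Gli3 and Gas1 windows.

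The co-receptors that present the ligand to Ptch1 moved apart from each other. Gas1, which encodes a lipid-anchored co-receptor (gene ID 14451, chromosome 13, 60174405 to 60177535, minus strand), had 130, 138, 140 and 118 CPM in the deleted libraries and 113, 116, 85.9 and 102 CPM in the intact libraries. All deleted libraries were above all intact ones, by a narrow margin between deleted replicate 4 and intact replicate 2. Gas1 rose by 0.34 ± 0.09 (SE) on the log2 scale, or 1.26-fold with a 95% interval of 1.09 to 1.46 (adjusted p = 0.0122, edgeR quasi-likelihood, Benjamini-Hochberg). A list of 10 meningeal markers summed to 69.3, 123, 151 and 19.9 CPM in the deleted and 27.9, 25.4, 17.4 and 40.8 CPM in the intact libraries, with 5 of 9 tested members higher, none lower and none at 0 in every library. That count of 5 was 1 without deleted replicate 2, deleted replicate 3 or intact replicate 1, 2 without intact replicate 2 or 3, and 8 without deleted replicate 4. In the deleted group Gas1 was highest in replicates 2 and 3, which had the most meningeal markers, and lowest in replicate 4, which had the least. In the intact group replicate 4, with the most meningeal markers, was second lowest in Gas1, and it had more of these markers but less Gas1 than deleted replicate 4. The part of meningeal RNA in the Gas1 change was not tested. Without deleted replicates 2 and 3 the log2 fold change of Gas1 was 0.25 ± 0.12 (SE) and the call was lost (adjusted p = 0.123 by edgeR quasi-likelihood). In the 589 of 2961 exon bases that GENCODE shares with a non-coding gene on the opposite strand, reads cannot be told apart without strand.

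Cdon, which encodes an immunoglobulin-family co-receptor (gene ID 57810, chromosome 9, 35421528 to 35507652, plus strand), had 230, 222, 246 and 250 CPM in the deleted libraries and 298, 290, 248 and 279 CPM in the intact libraries. The ranges met only through intact replicate 3, the lowest intact library. Cdon fell by 0.23 ± 0.06 (SE) on the log2 scale, to 0.851 of the intact level with a 95% interval of 0.780 to 0.929 (adjusted p = 0.00398, edgeR quasi-likelihood, Benjamini-Hochberg). It was called in all 18 alternative fits for any change. Boc, the gene of the closest relative of Cdon (gene ID 117606, chromosome 16, 44485045 to 44558870, minus strand), had 78.5 to 82.03 CPM in the deleted and 74.4 to 91.3 CPM in the intact libraries. Its log2 fold change was -0.08 ± 0.05 (SE), adjusted p = 0.206 by edgeR quasi-likelihood, with an unadjusted 95% interval of the ratio of 0.873 to 1.02. Without intact replicate 3 Boc was called lower, at -0.13 with adjusted p = 0.00677 in the same test. Cdon per kilobase was 0.771, 0.696, 0.764 and 0.916 of Gas1 in the deleted libraries and 1.14, 1.08, 1.25 and 1.19 times Gas1 in the intact libraries, so that Gas1 exceeded Cdon in every deleted and in no intact library. Gas1 was 2.33 ± 0.173 times Boc per kilobase in deleted and 1.75 ± 0.141 times Boc in intact cortex (SD, n = 4 each), without overlap.

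Smo and Sufu, which transmit and restrain the signal inside the cell, were not called. Smo (gene ID 319757, chromosome 6, 29735497 to 29761366, plus strand) had 129 to 143 CPM in the deleted and 119 to 139 CPM in the intact libraries. Its log2 fold change was 0.08 ± 0.05 (SE), adjusted p = 0.154 by edgeR quasi-likelihood, with an unadjusted 95% interval of the ratio of 0.984 to 1.14. Smo was called higher in 3 of 18 alternative fits for any change, including library totals only (0.15, adjusted p = 0.0262). Sufu, which encodes a protein that holds Gli proteins in check (gene ID 24069, chromosome 19, 46396896 to 46488804, plus strand), had 30.9 to 33.9 CPM in the deleted and 30.6 to 33.6 CPM in the intact libraries. Its log2 fold change was 0.02 ± 0.04 (SE), adjusted p = 0.771 in the same test, with an unadjusted 95% interval of the ratio of 0.945 to 1.08. Sufu was not called in any of the 18 alternative fits for any change, and its direction flipped in some of them.

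**Figure D3:**
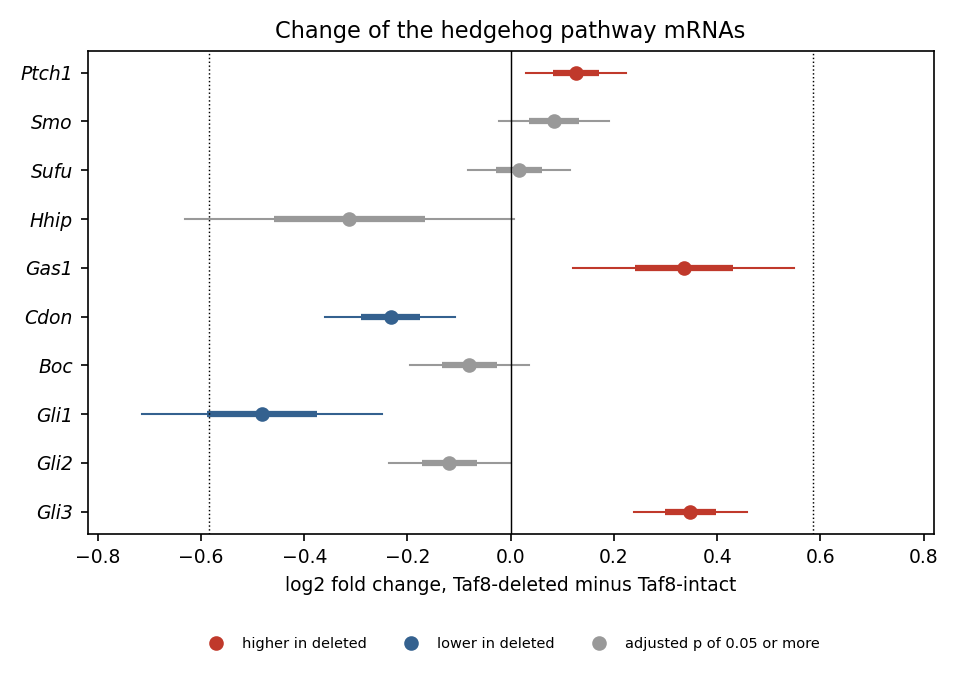
Log2 fold change of each hedgehog pathway mRNA, Taf8-deleted minus Taf8-intact, with SE (thick bar) and unadjusted 95% interval (thin bar); red and blue mark genes called higher and lower, grey those not called, and dotted lines a 1.5-fold change. Gli1 at -0.48 and Gli3 at 0.35 lie at the ends, and Sufu at 0.02 lies nearest 0.

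Per kilobase of gene length, Gas1, Smo and Cdon were the most abundant of the 10 mRNAs in both groups, and Gli1 and Hhip the least. In deleted cortex the mean levels in CPM per kilobase ran from Gas1 at 42.0 through Smo at 34.7, Cdon at 32.9, Gli3 at 23.2, Boc at 18.01, Ptch1 at 14.7, Sufu at 13.9, Gli2 at 8.76 and Gli1 at 1.65 to Hhip at 0.307. In intact cortex they ran from Cdon at 38.6 through Gas1 at 33.3, Smo at 32.7, Boc at 19.04, Gli3 at 18.2, Sufu at 13.7, Ptch1 at 13.5, Gli2 at 9.51 and Gli1 at 2.31 to Hhip at 0.382. Neighbours whose library values overlapped were Smo and Cdon, and Ptch1 and Sufu, in deleted cortex. In intact cortex they were Cdon and Gas1, Gas1 and Smo, Boc and Gli3, and Sufu and Ptch1.

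Between embryos of a group, 1 library was low for most of the 10 mRNAs. Intact replicate 3 was the lowest intact library for 6 of the 10 genes, Gli2, Gli3, Smo, Boc, Cdon and Gas1, with a median deviation of -0.14 from the group mean on the log2 scale. The same library had the lowest radial glial sum, 2182 CPM, and the highest neuronal sum, 8029 CPM. No other library had a median deviation beyond 0.10 in size. In the deleted group Gli1 and Hhip deviated most, at -0.24 and -0.27 in replicate 1 and at 0.28 and 0.27 in replicate 2. In the intact group Gas1 in replicate 3 deviated most, at -0.27, followed by Hhip in replicate 2, at 0.25.

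**Figure D4:**
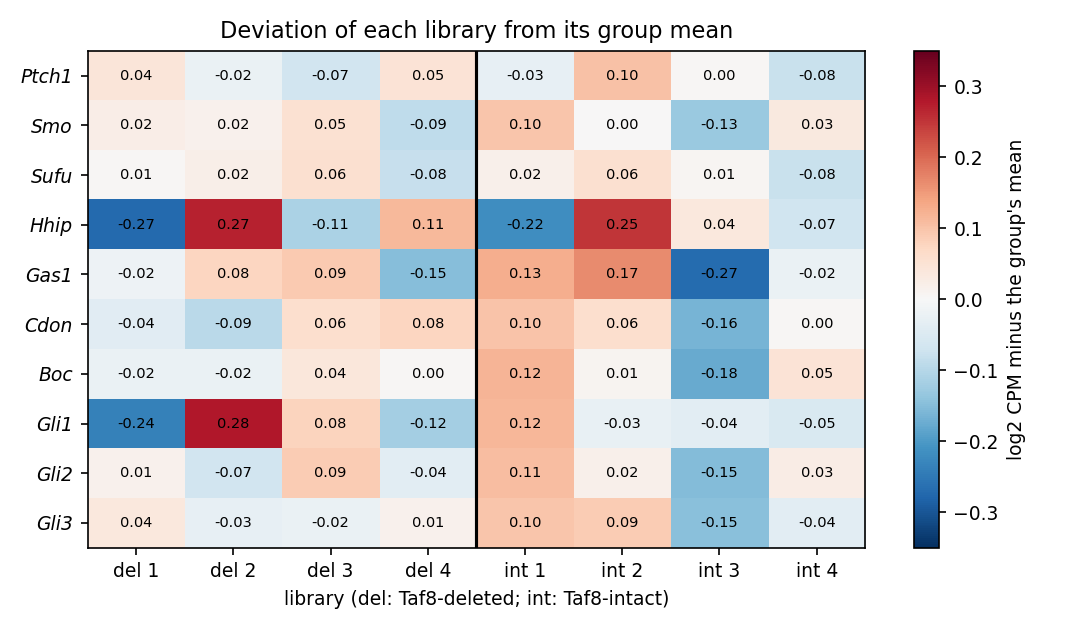
Log2 CPM (prior count 2) of each hedgehog pathway mRNA in each library minus the mean of its group, Taf8-deleted libraries (del) left and Taf8-intact (int) right. Intact replicate 3 is low for 6 genes, down to -0.27 for Gas1.

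The ligand itself and the genes of its release were measured beside the 10 genes. Shh (gene ID 20423) had 5.15, 7.06, 5.33 and 6.53 CPM in the deleted and 5.25, 5.59, 5.13 and 4.25 CPM in the intact libraries. The ranges overlapped, and its log2 fold change of 0.25 ± 0.12 (SE) was not called (adjusted p = 0.0937 by edgeR quasi-likelihood), though it was in 3 of 18 alternative fits for any change. The exons of Shh overlap non-coding genes on the opposite strand. Of 10 tested genes of the ligand and release list, 1 rose and 4 fell, or 50%, with a median log2 fold change of -0.03. This share was not above that of all genes tested, 63.5%, with 30.6% higher and 32.9% lower. Hhat, whose enzyme attaches palmitate to the ligand, rose by 0.59 ± 0.11, to 4.42 ± 0.304 CPM in deleted against 2.93 ± 0.365 CPM in intact cortex (SD, n = 4 each). Scube1 and Scube3, whose secreted proteins help release lipid-bearing ligand, fell by 0.75 ± 0.09 and 0.23 ± 0.06 (log2 ± SE). Disp2, a relative of the ligand releaser Disp1, fell by 0.55 ± 0.07.

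Among 23 intracellular regulators, 10 rose and 8 fell, or 78.3%, with a median log2 fold change of 0.04. Of all genes tested, 63.5% were called, 30.6% higher and 32.9% lower. Spop, which encodes the substrate adaptor of a Cul3 ubiquitin ligase that targets Gli2 and Gli3, had 93.0, 93.5, 92.8 and 95.9 CPM in the deleted and 172, 177, 177 and 177 CPM in the intact libraries. It fell by 0.91 ± 0.03 (SE; adjusted p = 7.17e-10, edgeR quasi-likelihood, Benjamini-Hochberg), the largest change of the list and the only call against a 1.5-fold change. Cul1, the scaffold of another ubiquitin ligase, the kinase gene Dyrk2 and the receptor kinase gene Grk2 fell by 0.49 ± 0.04, 0.46 ± 0.04 and 0.35 ± 0.03 (log2 ± SE). Iqce, which encodes a ciliary protein that helps relay the signal from Smo, rose by 0.29 ± 0.03.

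Among 21 genes of the primary cilium, 12 rose and 5 fell, or 81%, with a median log2 fold change of 0.17. Of all genes tested, 63.5% were called, 30.6% higher and 32.9% lower. Cep290, of the ciliary transition zone, rose to 43.9 ± 3.66 CPM in deleted against 29.5 ± 1.55 CPM in intact cortex (SD, n = 4 each). The intraflagellar transport genes Ift88 and Wdr35 rose by 0.49 ± 0.05 and 0.36 ± 0.04 (log2 ± SE). Another transport gene, Ttc21b, fell by 0.48 ± 0.05, and Arl13b, the gene of a ciliary GTPase, fell by 0.45 ± 0.05. Cep290 shares 881 exon bases with a gene on the opposite strand.

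Of 9 tested genes known to respond to hedgehog signalling in various tissues, 5 fell and 1 rose, or 66.7%, with a median log2 fold change of -0.27. This share was near that of all genes tested, 63.5%, with 30.6% higher and 32.9% lower. The D-type cyclin genes Ccnd1 and Ccnd2 fell by 0.62 ± 0.13 and 0.27 ± 0.06 (log2 ± SE). Ccnd1 shares 1100 exon bases with a gene on the opposite strand. Nkx2-1, a transcription factor gene of the ventral telencephalon, had 53.9, 58.7, 53.7 and 53.0 CPM in the deleted and 77.6, 76.5, 60.1 and 63.2 CPM in the intact libraries, and fell by 0.34 ± 0.08. With library totals only, its deleted and intact ranges overlapped. Nkx2-2, Nkx6-2 and Olig2 of the same list, named after their values were seen, were not called. Their log2 fold changes were -0.50 ± 0.44, 0.49 ± 0.31 and 0.13 ± 0.06 (SE). Nkx2-2 had only 4 to 21 counts a library and Nkx6-2 20 to 87, so that a change like that of Nkx2-1 could be missed in them. Nkx6-2 shares 246 of 1907 exon bases with a gene on the opposite strand. Markers of cortical interneurons, cells born in the ventral telencephalon, were lower for 6 of 8 and higher for 1. Their sums were 530 to 568 CPM in the deleted and 733 to 820 CPM in the intact libraries. The lower calls numbered 5 without deleted replicate 1, 3 or 4 or intact replicate 1 or 2. They were also 5 with upper-quartile factors and with library totals only. A link between these markers and the Nkx2-1 change was not tested. Foxf2, a transcription factor gene of brain pericytes, rose by 0.29 ± 0.09. All 6 pericyte markers also rose, with sums of 103 to 127 CPM in deleted and 86.9 to 88.3 CPM in intact libraries. Only 3 of the 6 were called without deleted replicate 3, without any 1 of the 4 intact libraries, or with limma voom. Without deleted replicates 2 and 3 the Foxf2 call was lost (0.16, adjusted p = 0.192 by edgeR quasi-likelihood). At that setting 3 of 6 pericyte and 1 of 9 meningeal markers were called higher. Of the 16375 genes tested there, 4219 were called higher and 4666 lower, or 54.3% in either direction.

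**Figure D5:**
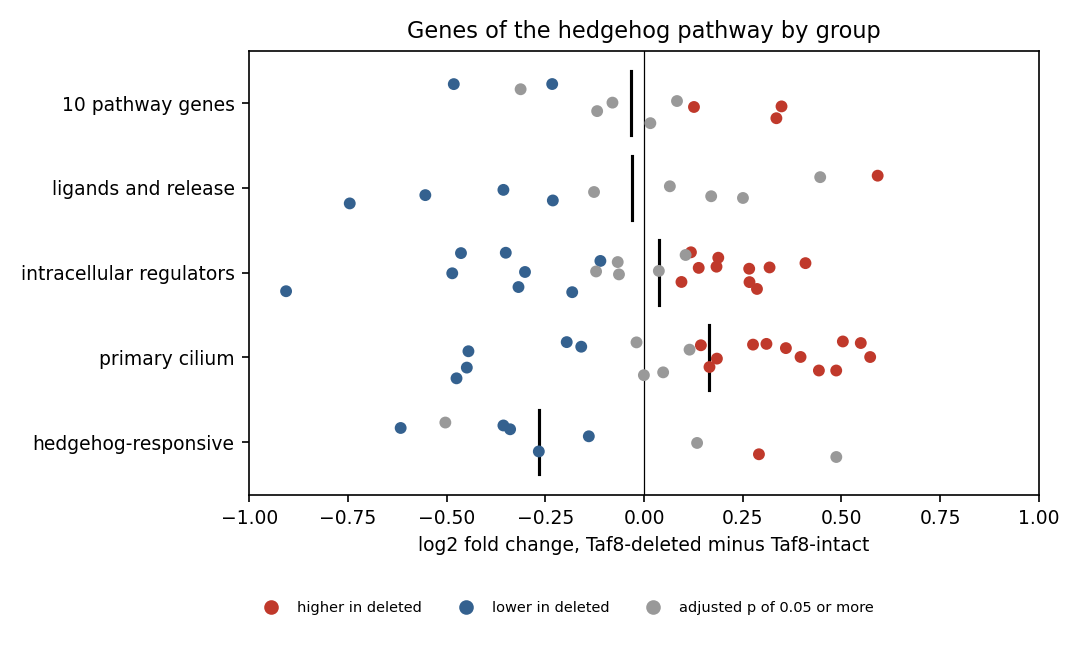
Log2 fold change, Taf8-deleted minus Taf8-intact, of each tested gene in 5 groups of hedgehog pathway genes; points are genes, spread vertically for legibility, coloured as called higher (red), lower (blue) or not called (grey), and black lines are medians. The medians run from -0.27 for the hedgehog-responsive genes to 0.17 for the primary cilium genes.

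The expression profiles most like that of Gli1 over the 8 libraries, by the root mean square difference of centred log2 CPM, were those of Zfp960, Nek8 and Treml2, at 0.07, 0.09 and 0.09. Nek8, a ciliary kinase gene, had 3.42, 4.29, 4.07 and 3.59 CPM in the deleted and 6.14, 6.10, 5.74 and 5.17 CPM in the intact libraries. Treml2 was close to the detection limit, at 0.131 to 0.203 CPM in deleted and 0.243 to 0.279 CPM in intact libraries. It was not called (adjusted p = 0.0854 by edgeR quasi-likelihood). The lower deleted levels of these genes follow from choosing them for profiles like that of Gli1.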

How the data were processed

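Gene counts came from the cortex of 4 Taf8-deleted and 4 Taf8-intact embryos. The deposited values are raw whole-number counts per gene, 1 column per embryo, and the 8 separate count lists were identical to the matrix columns. The submitters' processing notes name bcl2fastq 1.8.4, Subread 1.5.0, featureCounts and mm10 without their roles. No source used here states the annotation or how reads with several matches were counted. Symbols and positions came from RefSeq (GRCm38.p6), which matched 25275 of 27179 identifiers, overlaps from GENCODE M21, and gene lengths from the deposited matrix.

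Counts were tested with edgeR 4.0.16 (R 4.3.3): filterByExpr, TMM, quasi-likelihood test with robust estimation, no covariates, Benjamini-Hochberg adjustment over 16074 genes. The fit was first tested on simulated data. The SE is the absolute log2 fold change over the square root of F. Replicates are separate embryos. Within a group, library pairs differed by a chi-square per gene of 4.22 to 14.6, above sampling noise. Counting error limits low genes: a count of 0 allows up to 3 counts, or 0.0670 to 0.0758 CPM.

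The members, gene lists and alternatives were chosen with earlier results of these data known. Named genes are the 10 members, Shh, Taf8, in each other list up to 5 called genes with the smallest p plus the smallest p in the opposite direction, and 3 genes outside the lists nearest to Gli1 in profile; 1 gene that the rule names is not reported here. Alternatives used other size factors, filters, DESeq2 1.42.0, limma 3.58.1 voom, a test against 1.5-fold, a replicate block and fewer libraries.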

Additional observations from a re-analysis of the deposited data

Results flagged for a closer look

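Gli1 in intact replicate 1, at 9.16 CPM, stood apart from the other intact libraries, at 8.13 to 8.30 CPM. The gap to the next library was 0.843 of the range of the group, above Dixon's 95% critical value for 4 samples. It was the only such value in 20 sets of 4 libraries examined for the 10 genes, where chance gives about 1 in 20. Without intact replicate 1 the log2 fold change of Gli1 was -0.44 ± 0.12 (SE, adjusted p = 0.00663 by edgeR quasi-likelihood).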

How the results depend on the processing

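Of the 10 genes, Gli1, Gli3 and Cdon kept their direction and their call in all 18 alternative fits for any change, Gas1 in 17 and Ptch1 in 14. No called gene changed sign. Against a 1.5-fold change, which asks for a larger change by construction, 932 genes were higher and 816 lower, or 10.9% of all genes tested. There 0 members of the 10 genes, of the ligand and release genes, of the cilium genes and of the hedgehog-responsive genes were called in either direction. In that test 1 intracellular regulator was called lower and 0 higher, and at an unadjusted p under 0.05 the only further gene was 1 lower ligand and release gene. With single libraries left out, members called lower numbered 2 to 4, with 4 without intact replicate 3, and members called higher 2 to 4. At these settings 59.2% to 62.4% of all genes tested were called in either direction, 61.2% without intact replicate 3. Higher calls numbered 1 to 2 among ligand and release genes, with 2 without deleted replicate 1, and 1 to 2 among hedgehog-responsive genes, with 2 without deleted replicate 1, intact replicate 1 or intact replicate 2. Both lists had 2 higher calls with upper-quartile factors and with library totals only, which moved the median of all genes by 0.058 and 0.062 (log2) and put 56.6% and 57.2% of calls higher, against 48.2%. Hedgehog-responsive genes also had 2 with DESeq2 and with a filter at CPM above 1 in 4 libraries, and 0 without deleted replicates 2 and 3, also at an unadjusted p under 0.05. The cause of these moves was not tested. Leaving out deleted replicate 1 and intact replicate 4 together was chosen after seeing the data. Replicate numbers did not pair the samples: the correlation of deviations between libraries of the same number was -0.455 to 0.005. With the replicate block 4605 genes were higher and 5060 lower, and Hhip was called lower (-0.32, adjusted p = 0.0491 in edgeR's test).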

Other observations

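Further regulators, named after their values were seen, changed in both directions. Kif7, which encodes a ciliary kinesin that regulates Gli proteins, rose by 0.32 ± 0.06 (log2 ± SE), to 33.7 ± 2.07 CPM in deleted against 27.1 ± 2.21 CPM in intact cortex (SD, n = 4 each). Kif7 shares exon bases with other annotated genes. Gpr161, the gene of a ciliary receptor that restrains the pathway, fell by 0.32 ± 0.05, to 48.4 ± 1.98 CPM in deleted against 60.4 ± 3.49 CPM in intact cortex. Prkaca, of the protein kinase A catalytic subunit that primes Gli3 for processing, fell by 0.18 ± 0.03, and Gsk3b, of a kinase that acts after it, fell by 0.30 ± 0.04. Of the other kinase genes of the same list, Csnk1a1 rose by 0.09 ± 0.04. The protein kinase A subunit genes Prkacb and Prkar1a, at -0.12 ± 0.05 and -0.06 ± 0.03, were not called. Btrc, which recognises the phosphorylated Gli3, had a log2 fold change of -0.07 ± 0.03 and was not called.

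The cilium genes B9d1 and Mks1, both of the transition zone and named after their values were seen, rose by 0.55 ± 0.06 and 0.50 ± 0.08 (log2 ± SE). Wdr19, of intraflagellar transport, fell by 0.44 ± 0.06.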
